A study of Mus musculus with 9 samples.

Results

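The genes described here are 10 transcripts that mark microglia and macrophages in an activated, phagocytic state: Trem2, Tyrobp, Cd68, Cst7, Itgax, Clec7a, Lpl, Gpnmb, Lgals3 and Spp1. They were chosen as a named list of marker genes, and all 10 were found among the 20731 gene symbols of the count table. The filter on low counts kept 14746 genes for testing, 9 of the 10 among them. Clec7a did not pass it and is given by its counts.

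Microglia are the resident macrophages of the brain. At rest they express a homeostatic set of genes that includes P2ry12, Tmem119 and Cx3cr1. Around dying cells, lipid debris or protein deposits they switch on another set, known as the disease-associated microglia programme, in which the lipid-sensing receptor TREM2 signals through the adaptor TYROBP, and genes for lipid uptake, lysosomal digestion and matrix binding come up. Invading monocytes and border macrophages share many of these genes, so none of the 10 separates microglia from other phagocytes in whole tissue.

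RNA was taken from 9 male C57BL/6J mice aged 8 to 10 weeks, 3 in each of 3 groups, on day 2 after modelling. All mice carried cerebral venous sinus thrombosis (CVST), induced with ferric chloride on the superior sagittal sinus. The CVST+Ligation mice also had their deep cervical lymph nodes tied off, which serves as a model of blocked meningeal lymphatic drainage, and the 4-PBA mice had thrombosis and ligation plus 4-phenylbutyric acid, an inhibitor of endoplasmic reticulum stress, at 100 mg/kg by intraperitoneal injection. The methods place that injection 30 minutes before modelling, whereas the series record lists it after ligation. No library without thrombosis was part of this comparison, so every level below is a level in a brain with thrombosis. The labels give the tissue as brain, and the series record gives cortex.

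The 9 libraries held 18100739 to 25091498 counted reads each. A floor of 3 reads corresponded to 0.114 to 0.163 CPM (counts scaled to a common library size), and this floor covers counting error only. Genes that mark brain regions differed between the groups. The summed CPM of 7 cortex genes was 1930 to 2414 in CVST, 555 to 1774 in CVST+Ligation and 665 to 975 in 4-PBA. Over 6 hypothalamus genes the sum was 2.17 to 3.36, 2.19 to 20.7 and 277 to 472. CVST+Ligation replicate 2 held 968 CPM of 6 cerebellum genes, against at most 43.2 in any other library. Region markers thus moved with the groups, and their part in the results below was not tested. In bulk RNA, fewer cells of a type and less RNA per cell cannot be told apart. The homeostatic microglia list was detected in every library, with none of its 16 genes at 0 anywhere, and the defining genes of border macrophages were low. Mrc1 lay between 1.02 and 13.3 CPM and Lyve1 between 0.108 and 1.01 CPM.

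The sequence just upstream of a gene's start is shown for 4 of the genes that carry the contrasts described below. Cd68 and Trem2 are 2 of the 3 genes that were lower after ligation at an unadjusted p below 0.05, and Spp1 and Itgax are among those that were high in a single library. Each line holds the 250 bases before the start given in the RefSeq promoter table, 5′ to 3′ on the gene's own strand, on GRCm38.p6, the build of the data, and distances are counted from that start. The windows are chr11:69666171-69666420 (minus strand) for Cd68, chr17:48346151-48346400 for Trem2, chr7:128129300-128129549 for Itgax and chr5:104434861-104435110 for Spp1, these last on the plus strand. For Itgax the end of the window lies inside the gene span printed with its levels. Capitals mark 2 short motifs, searched on both strands. TGANTCA is a loose form of the core bound by AP-1 (FOS and JUN proteins), which has C or G at N. Here any base was allowed at N, and the Trem2 match, TGAATCA, has A there and so is not that core. GGAAGT is a core bound by PU.1, the factor that specifies macrophages and microglia. A capital run ACTTCC is GGAAGT on the other strand. No match of 1 motif overlapped a match of the other.
Cd68: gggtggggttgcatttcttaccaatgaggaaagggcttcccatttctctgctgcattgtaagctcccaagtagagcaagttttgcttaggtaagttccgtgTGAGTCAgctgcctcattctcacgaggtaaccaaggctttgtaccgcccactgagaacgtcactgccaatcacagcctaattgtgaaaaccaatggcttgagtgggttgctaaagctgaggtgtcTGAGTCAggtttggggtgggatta
Trem2: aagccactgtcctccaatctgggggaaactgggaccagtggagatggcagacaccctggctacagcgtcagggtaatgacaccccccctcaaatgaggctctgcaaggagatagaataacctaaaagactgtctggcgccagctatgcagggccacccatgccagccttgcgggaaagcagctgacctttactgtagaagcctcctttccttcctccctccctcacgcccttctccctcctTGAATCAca
Itgax: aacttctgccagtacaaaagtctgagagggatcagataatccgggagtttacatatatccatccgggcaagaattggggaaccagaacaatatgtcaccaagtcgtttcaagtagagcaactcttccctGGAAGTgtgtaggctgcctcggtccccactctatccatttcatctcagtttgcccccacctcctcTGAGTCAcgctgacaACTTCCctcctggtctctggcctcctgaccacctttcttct
Spp1: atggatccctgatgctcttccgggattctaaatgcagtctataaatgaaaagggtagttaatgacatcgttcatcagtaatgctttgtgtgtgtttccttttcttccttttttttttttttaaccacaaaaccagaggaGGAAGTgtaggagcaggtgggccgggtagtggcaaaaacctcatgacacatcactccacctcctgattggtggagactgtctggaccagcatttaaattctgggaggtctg

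Promoter windows were at hand for 8 of the 10 genes, Tyrobp and Lpl being without one. They were 10 windows in all, since Spp1 and Clec7a each have a second start in the table. The window of Spp1 shown is the one at the start of the gene span, and its other window held neither motif. TGANTCA occurred in 3 of the 10 windows, at 149 and 24 bases before the start of Cd68, 9 bases before that of Trem2 and 56 bases before that of Itgax. Counted by gene this is 3 of 8. Among 27025 genes with a window of that length, taking 1 window per gene, 6.87% held it. GGAAGT occurred in 3 of the 10 windows as well, at 121 and 41 bases before the start of Itgax, 111 bases before that of Spp1 and 62 bases before that of Cst7. By gene this is also 3 of 8, against 20.0% of the same 27025 genes. The motifs were picked after these sequences had been seen. A match is a run of letters and not a measured binding site, and the data hold no measurement of binding.

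Between genes, levels were compared per length, as FPKM. By the median over the 9 libraries the order was Spp1 (67.1 FPKM), Tyrobp (32.1), Trem2 (26.0), Cd68 (24.0), Lpl (7.65), Gpnmb (5.38), Lgals3 (4.86), Cst7 (1.53), Clec7a (0.170) and Itgax (0.169). The ranges of neighbours in this order overlapped in every case but 1: Cd68 did not go below 20.7 FPKM in any library and Lpl did not exceed 11.7 FPKM. Spp1 had the widest range, from 32.1 to 474 FPKM. By this median Tyrobp and Trem2 ranked above 69.9% and 65.2% of the tested genes, and Itgax above 1.21%.

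**Figure D1:**
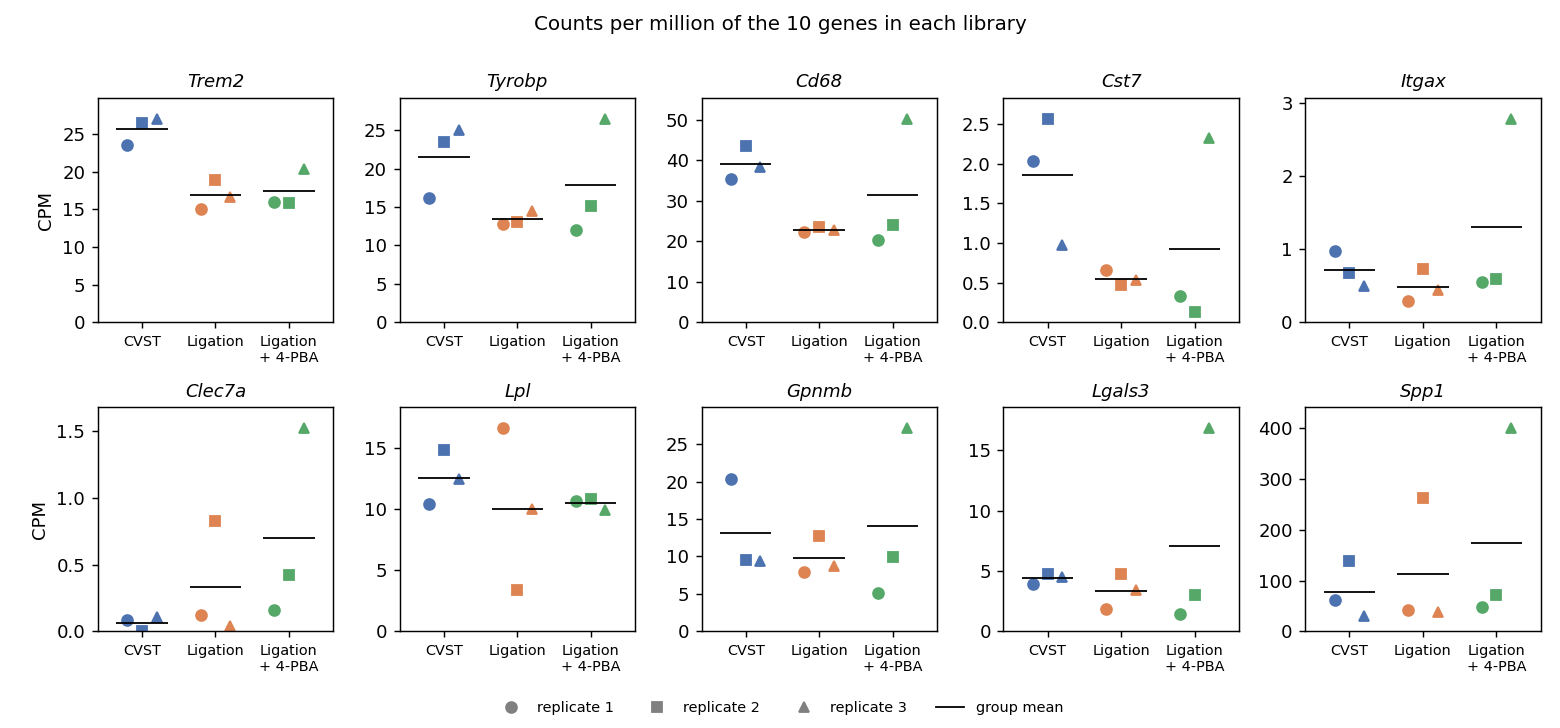
Level of each of the 10 genes in each library, in CPM on a linear axis that starts at 0, with 3 libraries per group and a line at the group mean. Trem2, Tyrobp and Cd68 were lower in all 3 CVST+Ligation libraries than in all 3 CVST libraries, and 7 of the 10 genes had their highest value in 4-PBA replicate 3. The share of all genes highest in that library was not computed.

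The first comparison, CVST+Ligation against CVST, asks what the block of lymphatic drainage adds to thrombosis. The mRNA estimates of Trem2, Tyrobp and Cd68 were lower after ligation, without passing the adjusted test. Each had an unadjusted p below 0.05 by edgeR's quasi-likelihood test, and the levels were 1.53-fold, 1.60-fold and 1.72-fold lower in that order. None of the 9 tested genes passed after Benjamini-Hochberg adjustment over all genes (3 of 14746 genes did, 0.0203%). The 3 genes at an unadjusted p below 0.05, all lower, compare with 4.18% of all tested genes that were lower at that threshold, 5.47% that were higher and 9.64% in either direction.

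Gene positions are given on GRCm38. Trem2 (chr17:48346401-48352276) encodes the surface receptor for lipids and apolipoproteins. Its level was 23.5, 26.4 and 27.1 CPM in the CVST libraries and 15.1, 18.9 and 16.6 CPM in the CVST+Ligation libraries. The groups did not overlap, and the lowest CVST library lay above the highest ligated one. The log2 fold change was -0.61 (SE 0.17, n = 3 per group, edgeR adjusted p = 0.308).

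Tyrobp (chr7:30413782-30417582), the adaptor also known as DAP12, carries the signalling motif that TREM2 lacks. It stood at 16.1, 23.5 and 25.1 CPM in CVST and at 12.8, 13.04 and 14.5 CPM after ligation. The CVST libraries were spread out and the ligated ones were close together, again without overlap. The log2 fold change was -0.68 (SE 0.29, edgeR adjusted p = 0.502).

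Cd68 (chr11:69664213-69666170), a glycoprotein of late endosomes and lysosomes used to stain phagocytes, showed 35.4, 43.6 and 38.4 CPM in CVST. After ligation it showed 22.2, 23.4 and 22.9 CPM. This was the tightest ligated group of the 10 genes in proportion to its mean, 22.8 CPM ± 0.603 (SD, n = 3). The log2 fold change was -0.78 (SE 0.30, edgeR adjusted p = 0.447).

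Cst7 (chr2:150570415-150578944) encodes cystatin F, an inhibitor of lysosomal cysteine proteases. It was rare, with 48, 58 and 18 reads in CVST, or 2.04, 2.57 and 0.976 CPM, and 16, 9 and 12 reads after ligation, or 0.661, 0.464 and 0.527 CPM. These groups did not overlap either, and the log2 fold change of -1.75 was the furthest from 0 among the 9 genes, but its error was wide (SE 0.88, edgeR adjusted p = 0.557). Together, 4 of the 9 genes had non-overlapping groups with ligation lower, where 7.21% of all tested genes did and 6.61% had such groups with ligation higher. None of the 9 genes was of the latter kind.

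The other 5 tested genes overlapped between these groups. Gpnmb (chr6:49036518-49058182), a membrane glycoprotein of lysosomes, stood at 20.4, 9.53 and 9.33 CPM in CVST and at 7.98, 12.7 and 8.75 CPM after ligation. Lgals3 (chr14:47373860-47386167), the sugar-binding protein galectin-3, gave 3.95, 4.79 and 4.50 CPM against 1.86, 4.79 and 3.47 CPM. For Itgax (chr7:128129526-128150657), the CD11c integrin subunit, the values were 0.977, 0.665 and 0.488 CPM against 0.289, 0.721 and 0.440 CPM. Their log2 fold changes of -0.42 (SE 0.55), -0.39 (SE 0.76) and -0.57 (SE 0.73) were each smaller than their standard errors.

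Among the 9 tested genes, Lpl and Spp1 diverged most within the ligated group. In both, CVST+Ligation replicate 2 was the library that stood apart. Lpl (chr8:68880555-68906932) encodes lipoprotein lipase, which neurons make as well as phagocytes. It was at 10.4, 14.9 and 12.5 CPM in CVST and at 16.7, 3.40 and 9.98 CPM after ligation, with replicate 2 the lowest of all 9 libraries. Spp1 (chr5:104435111-104441053) encodes osteopontin, a secreted ligand of integrins and CD44 that some neurons also make. Its levels were 61.0, 139 and 29.9 CPM in CVST and 41.7, 262 and 37.5 CPM after ligation, with replicate 2 far above the rest of its group. The log2 fold changes were -0.33 (SE 0.44) for Lpl and 0.57 (SE 0.97) for Spp1, and without replicate 2 they were 0.08 and -0.96. The cerebellum sum of that library is the high value given above, and its part in the levels of Lpl and Spp1 was not tested.

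Over the 9 genes, 8 log2 fold changes were below 0 and the median was -0.57, while the median of all 14746 genes was 0.00. The count at an unadjusted p below 0.05 depended on single libraries. Without CVST replicate 2, or without any 1 of the CVST+Ligation libraries, Trem2 was the 1 gene left below 0.05, with p between 0.00415 and 0.0225. Over all 9 omissions of 1 library and the omission of 2, Trem2 remained below 0.05. DESeq2 gave Trem2 an adjusted p of 0.0356, and it called 264 genes in all, so the adjusted call of Trem2 differed between the tools.

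**Figure D2:**
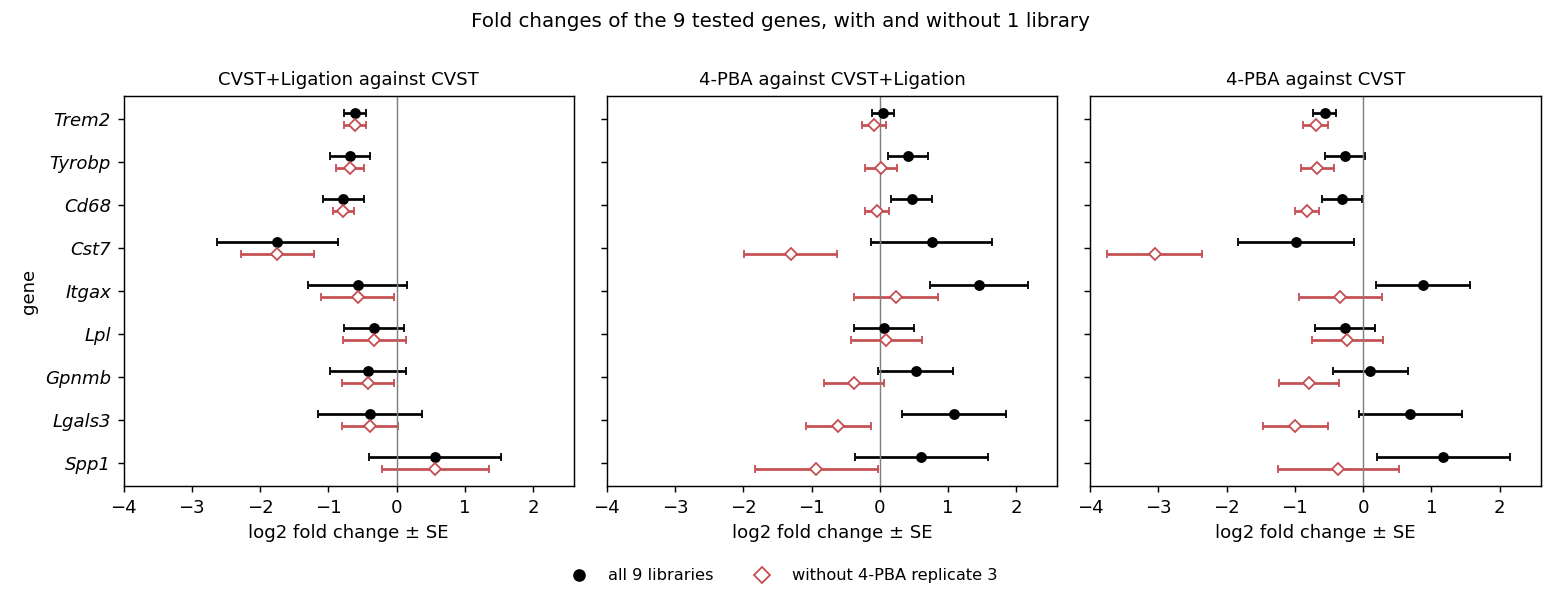
Log2 fold change with its standard error for the 9 tested genes in the 3 comparisons, with all 9 libraries (filled circles) and without 4-PBA replicate 3 (open diamonds). In 4-PBA against CVST+Ligation, all 9 estimates lay above 0 with every library, and 3 of 9 did without that replicate.

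The second comparison, 4-PBA against CVST+Ligation, asks what the stress inhibitor changes in ligated mice. None of the 9 genes differed at an unadjusted p below 0.05, where 3.23% of all tested genes did (1.81% higher, 1.42% lower), and edgeR called 0 genes of 14746 after adjustment. DESeq2 called 22 genes, none of the 9 among them. No gene of the 9 had non-overlapping groups, where 3.51% of all genes did with 4-PBA higher and 4.22% with 4-PBA lower. All 9 log2 fold changes were above 0, with a median of 0.53 against -0.02 for all genes. That direction rested on 4-PBA replicate 3. With this library left out, 3 of the 9 estimates were above 0.

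The 4-PBA libraries split into a pair and a single. Cd68 stood at 20.4 and 23.9 CPM in replicates 1 and 2 against 22.2 to 23.4 CPM in the ligated libraries, and at 50.3 CPM in replicate 3, above every CVST library. Tyrobp was 11.97, 15.1 and 26.5 CPM, again with replicate 3 the highest of all 9 libraries. Trem2 differed the least, at 16.0, 15.8 and 20.3 CPM, and its replicate 3 remained below the lowest CVST library. The log2 fold changes against CVST+Ligation were 0.47 for Cd68 (SE 0.30), 0.41 for Tyrobp (SE 0.29) and 0.05 for Trem2 (SE 0.17), each with an edgeR adjusted p = 0.9998. Without replicate 3 they were -0.04, 0.01 and -0.08.

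The gap was wider for the matrix, sugar-binding and integrin genes. Spp1 was at 48.5, 70.9 and 401 CPM, so that replicate 3 was 5.65 times the next 4-PBA library. Lgals3 gave 1.41, 2.99 and 16.9 CPM, with replicate 3 at 3.52 times the highest of the other 8 libraries. Itgax gave 0.542, 0.589 and 2.78 CPM, Gpnmb 5.15, 9.93 and 27.2 CPM, and Cst7 0.325, 0.126 and 2.32 CPM. In each of these genes replicate 3 was the highest 4-PBA library by at least 2.74 times, and in Itgax and Gpnmb it was the highest of all 9. Cst7 was the exception among the low genes, since CVST replicate 2, at 2.57 CPM, lay above it. The log2 fold changes against CVST+Ligation were 0.61 (SE 0.97) for Spp1, 1.08 (SE 0.76) for Lgals3, 1.45 (SE 0.72, edgeR adjusted p = 0.9998) for Itgax, 0.53 (SE 0.55) for Gpnmb and 0.76 (SE 0.88) for Cst7. Lpl showed nothing of this kind, with 10.7, 10.8 and 9.91 CPM and a log2 fold change of 0.06 (SE 0.44).

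Clec7a (chr6:129461591-129472785) encodes Dectin-1, a receptor for fungal glucans that signals through SYK and CARD9. It was counted 2, 0 and 2 times in CVST, 3, 16 and 1 times in CVST+Ligation and 3, 10 and 40 times in 4-PBA. In CPM these were 0.0850, 0 and 0.108, then 0.124, 0.825 and 0.0440, then 0.163, 0.421 and 1.52. All CVST libraries were at or under the floor of 3 reads, and the highest library was again 4-PBA replicate 3. In CPM the 4-PBA libraries lay above the CVST libraries without overlap, though 4-PBA replicate 1 held only 3 reads. Of all tested genes, 12.3% had such groups with 4-PBA higher. It did not pass the low-count filter and so is not among the 9 tested genes.

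Summed over the 10 genes, the libraries gave 173.9, 265.0 and 148.3 CPM in CVST, 119.3, 340.3 and 114.6 CPM in CVST+Ligation and 115.1, 150.6 and 558.5 CPM in 4-PBA. Spp1 made up most of the high sums, so the sum follows that 1 gene more than the rest. The mean z-score of log2 CPM over the 9 tested genes, which weights the genes equally, was 0.42, 0.69 and 0.27 in CVST, -0.62, -0.29 and -0.51 in CVST+Ligation and -0.85, -0.48 and 1.37 in 4-PBA. By this measure the 3 CVST libraries were above the 3 ligated ones, and 4-PBA held both the lowest and the highest library of the 9.

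**Figure D3:**
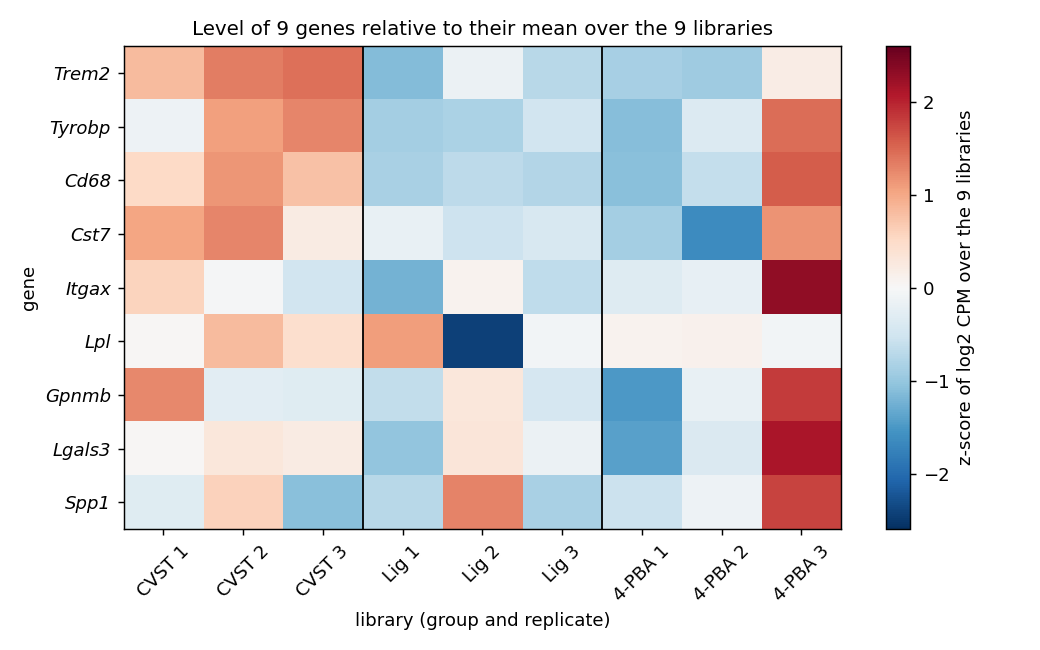
Z-score of log2 CPM of the 9 tested genes (rows) in the 9 libraries (columns, by group and replicate), each gene centred and scaled over the 9 libraries. 4-PBA replicate 3 has the highest value in 6 of the 9 rows, Lpl is lowest in CVST+Ligation replicate 2, and Trem2, Tyrobp and Cd68 are low through the other ligated and 4-PBA libraries.

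The third comparison sets 4-PBA against CVST. It shares the CVST libraries with the first comparison and the 4-PBA libraries with the second, so the 3 are not independent of each other. Trem2 was 1.48-fold lower in 4-PBA, with a log2 fold change of -0.56 (SE 0.17, n = 3 per group, edgeR adjusted p = 0.156) and no overlap between the groups. It was the 1 gene of the 9 at an unadjusted p below 0.05 and the 1 gene of the 9 with non-overlapping groups and 4-PBA lower, where 15.4% of all tested genes had such a p (8.07% higher, 7.33% lower) and 11.5% had such groups (12.3% with 4-PBA higher). No gene of the 9 passed after adjustment, and 18 of 14746 genes did (0.122%). A share of 1 in 9 is near that background.

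The other estimates against CVST were -0.31 (SE 0.30) for Cd68, -0.27 (SE 0.29) for Tyrobp, -0.99 (SE 0.85) for Cst7, -0.27 (SE 0.44) for Lpl, 0.11 (SE 0.55) for Gpnmb, 0.69 (SE 0.75) for Lgals3, 0.88 (SE 0.70) for Itgax and 1.18 (SE 0.98) for Spp1, each with an unadjusted p above 0.05. Here too 4-PBA replicate 3 decided the count. Without it, 4 genes had an unadjusted p below 0.05 and were lower than in CVST, and none of the 9 estimates was above 0. In the same fit 2341 of 14921 genes had such a p. The 4 were Cd68 at -0.82 (SE 0.17, edgeR adjusted p = 0.0814), Trem2 at -0.69 (SE 0.18, adjusted p = 0.125), Cst7 at -3.06 (SE 0.69, adjusted p = 0.0910) and Tyrobp at -0.67 (SE 0.24, adjusted p = 0.229). With CVST+Ligation replicate 2 left out as well, Cd68 reached an adjusted p of 0.0444 in a fit that called 577 of 14826 genes. DESeq2 with all libraries gave Trem2 an adjusted p of 0.0345 and called 855 of 14746 genes.

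The genes did not all vary alike. Over the 9 libraries Cd68 correlated with Tyrobp at r = 0.94, with Trem2 at 0.81 and with Cst7 at 0.85, and Lgals3 correlated with Itgax and with Gpnmb at 0.85. Cd68 and Spp1 gave 0.44, and Spp1 and Lpl gave -0.51. Leaving out 4-PBA replicate 3 raised Cd68 and Trem2 to 0.96 and lowered Cd68 and Spp1 to 0.08 and Lgals3 and Itgax to 0.52. These values describe 9 libraries in 3 groups, with the differences in depth and region markers given above, and carry no test.

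Among the other tested genes, the 10 whose log2 CPM was most like the mean z-score of the 9 genes included C5ar1 (r = 0.98 over 9 libraries), Slc15a3, Anxa3, Itgb2, Mcm5, Gngt2, Pidd1, Hmox1 and Cd14 (r = 0.94). C5ar1, the receptor for complement fragment C5a, stood at 4.97, 7.01 and 3.31 CPM in CVST, at 1.82, 1.86 and 2.02 CPM after ligation and at 1.57, 1.47 and 12.3 CPM in 4-PBA. Hmox1, which encodes the haem-degrading enzyme haem oxygenase 1, stood at 17.9, 30.7 and 14.3 CPM, then 12.4, 12.6 and 12.6 CPM, then 7.15, 8.46 and 45.3 CPM. Both were highest in 4-PBA replicate 3, and without that library their r was 0.93 and 0.87.

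Of 20 listed genes around TREM2, TYROBP and Dectin-1, 15 were tested. The list holds related receptors and the proteases that shed TREM2 as well as downstream genes. After ligation 1 of the 15 had an unadjusted p below 0.05, which is near the background share, and the median log2 fold change was -0.15. It was Inpp5d, the lipid phosphatase SHIP1 that restrains TREM2 signalling, at 28.2, 33.8 and 18.3 CPM in CVST and 19.3, 19.1 and 17.1 CPM after ligation (log2 fold change -0.53, SE 0.24, edgeR adjusted p = 0.516). The kinase Syk, which binds phosphorylated TYROBP, had a log2 fold change of -0.39 (SE 0.33), the phosphatase Ptpn6 -0.69 (SE 0.34), the exchange factor Vav1 -0.81 (SE 0.37) and the phospholipase Plcg2 -0.03 (SE 0.25). Adam10 and Adam17, the proteases that shed TREM2 from the surface, had 0.10 (SE 0.20) and 0.16 (SE 0.17). Neither comparison with 4-PBA gave a gene of this list at an unadjusted p below 0.05, where 3.23% of all genes had one against CVST+Ligation and 15.4% against CVST.

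Of 15 listed ligands, partner chains and processing enzymes of the 10 genes, 13 were tested. At an unadjusted p below 0.05 stood 1 of the 13 after ligation (9.64% of all genes), 1 in 4-PBA against CVST+Ligation (3.23%) and 3 in 4-PBA against CVST (15.4%). Itgam, the CD11b chain that like Itgax pairs with Itgb2, was at 2.51, 2.04 and 2.06 CPM in CVST, 1.24, 0.721 and 1.23 CPM after ligation and 0.867, 0.673 and 1.60 CPM in 4-PBA. It was lower than in CVST in both other groups, without overlap (log2 fold change -1.04, SE 0.43, edgeR adjusted p = 0.483 for ligation and -1.06, SE 0.43, adjusted p = 0.272 for 4-PBA, both with an unadjusted p below 0.05). Itgb2 itself had -0.40 (SE 0.35) after ligation. At an unadjusted p below 0.05, Apoe, the apolipoprotein that TREM2 binds and that astrocytes make in large amounts, was higher in 4-PBA than in CVST. It was 922.5, 1277 and 1565 CPM in CVST and 2373, 2610 and 1670.3 CPM in 4-PBA, without overlap (log2 fold change 0.82, SE 0.22, edgeR adjusted p = 0.133). Angptl4, an inhibitor of lipoprotein lipase, was the 1 gene of this list at an unadjusted p below 0.05 between 4-PBA and CVST+Ligation. It stood at 1.98, 3.71 and 3.38 CPM after ligation and at 3.63, 10.1 and 7.51 CPM in 4-PBA (log2 fold change 1.23, SE 0.46, edgeR adjusted p = 0.9998). Against CVST, where it was at 1.57, 3.86 and 2.39 CPM, its log2 fold change in 4-PBA was 1.44 (SE 0.46, edgeR adjusted p = 0.184), also at an unadjusted p below 0.05, and the groups overlapped in both comparisons. Cd44, the receptor for osteopontin, ranged from 4.23 to 72.2 CPM with overlapping groups.

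All 27 genes of the wider disease-associated list were tested, and 3 had an unadjusted p below 0.05 after ligation (11.1%, against 9.64% of all genes). Ctss, a lysosomal cysteine protease, was lower with a log2 fold change of -0.27 (SE 0.12, edgeR adjusted p = 0.516). Serpine2, a protease inhibitor, was higher with 0.42 (SE 0.12, edgeR adjusted p = 0.343). Ccl3, a chemokine, had no read in any ligated library and 0.255, 1.02 and 0.0542 CPM in CVST, so its fold is not given (edgeR adjusted p = 0.334). In 4-PBA it was at 0.867, 0.463 and 1.37 CPM, above the ligated libraries without overlap (edgeR adjusted p = 0.9998), and it was the 1 gene of the 27 at an unadjusted p below 0.05 in that comparison (3.23% of all genes). Against CVST, 2 of the 27 had such a p in 4-PBA (15.4% of all genes): Serpine2, higher with 0.67 (SE 0.12, edgeR adjusted p = 0.0545), and the phosphate transport gene Ank, lower with -0.37 (SE 0.13, edgeR adjusted p = 0.208). The most abundant genes of the list, the iron store Fth1 and the protease Ctsb, had -0.06 (SE 0.20) and -0.31 (SE 0.18) after ligation. After ligation the median over the 27 was -0.23, with 20 below 0.

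Among 20 tested genes of phagocytic receptors and the lysosome, 1 had an unadjusted p below 0.05 after ligation, where 9.64% of all genes did. It was Fcer1g, the adaptor chain of Fc receptors, at 10.7, 14.7 and 15.6 CPM in CVST and 7.44, 7.47 and 9.06 CPM after ligation (log2 fold change -0.77, SE 0.31, edgeR adjusted p = 0.467). The abundant lysosomal membrane gene Lamp1 had 0.18 (SE 0.15). Of the 20 estimates, 10 were above 0 and the median was -0.02. Against CVST, 4-PBA was higher for the scavenger receptor Cd36 (log2 fold change 1.80, SE 0.54, edgeR adjusted p = 0.160), the sterol carrier Npc2 (0.42, SE 0.16, adjusted p = 0.264) and the lysosomal lipase Lipa (0.45, SE 0.19, adjusted p = 0.306), each at an unadjusted p below 0.05. These 3 of 20 compare with 15.4% of all genes.

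None of 16 homeostatic microglia genes passed after edgeR's adjustment in any of the 3 comparisons. After ligation, 8 of the 16 had an unadjusted p below 0.05, all lower, where 4.18% of all genes did, and all 16 estimates were below 0 with a median of -0.43. The 8 included the complement chains C1qa, C1qb and C1qc, with C1qc at 89.2, 115.8 and 118.3 CPM in CVST and 64.8, 64.6 and 65.1 CPM after ligation (log2 fold change -0.73, SE 0.18, edgeR adjusted p = 0.288). They also included Aif1, Gpr34, Olfml3 and Fcrls. Among the receptor and membrane genes of the list, the log2 fold change was -0.06 (SE 0.27) for P2ry12, -0.26 (SE 0.18) for Tmem119, -0.32 (SE 0.20) for Cx3cr1, -0.48 (SE 0.25) for P2ry13 and -0.50 (SE 0.22) for Gpr34. The first 4 of these were named after their values had been seen. Summed over the list, CVST gave 1292, 1469.9 and 1362 CPM and ligation 1048, 1019.7 and 963 CPM. In 4-PBA the sums were 960.3, 932 and 1243 CPM, again with replicate 3 the highest of its group. Of the 16 genes, 6 were lower in 4-PBA than in CVST at an unadjusted p below 0.05 (7.33% of all genes), and none had such a p in 4-PBA against CVST+Ligation (3.23%). Both lists thus had most of their estimates below 0 after ligation, and whether the differences of the lists were unequal in size was not tested.

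**Figure D4:**
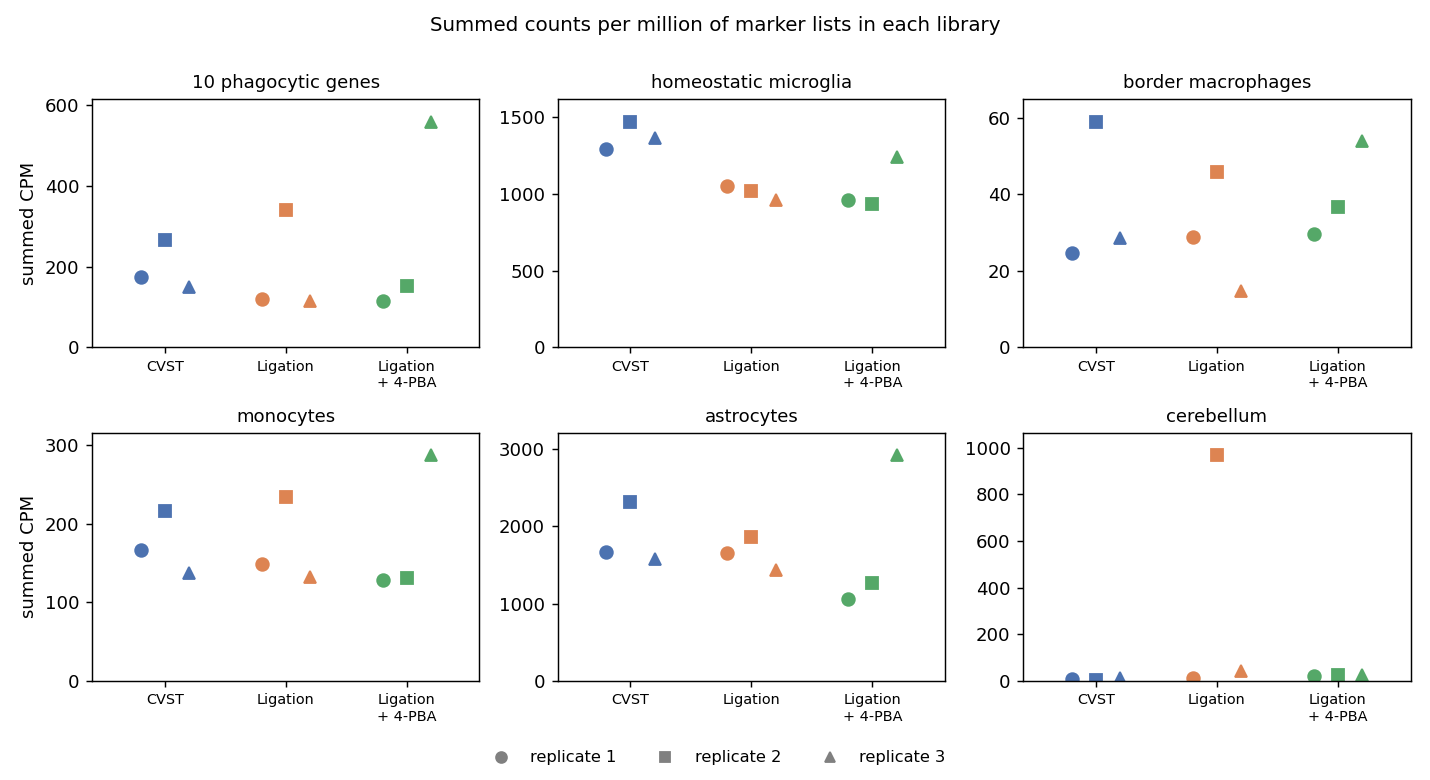
Summed CPM of 6 marker lists in each library, on linear axes that start at 0. The homeostatic sum is lower in all 3 CVST+Ligation libraries than in all 3 CVST libraries, 4-PBA replicate 3 is highest for the phagocytic, monocyte and astrocyte lists, and CVST+Ligation replicate 2 stands apart for the cerebellum list.

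Some markers of other cells were also highest in 4-PBA replicate 3. This held for 8 of 10 monocyte genes, 3 of 6 astrocyte genes, 3 of 11 neutrophil genes and 2 of 10 border macrophage genes. Of the wider disease-associated list it held for 9 of 27 genes, and of the homeostatic microglia list for 0 of 16. The share of all genes that were highest in this library was not computed, so these counts have no background. For the monocyte list the summed level was 128 and 131 CPM in the other 4-PBA libraries, 137 to 217 CPM in CVST, 133 to 234 CPM after ligation and 287 CPM in that library. The fibronectin gene Fn1 made up most of these sums, at 109.9 to 246.8 CPM, and the defining gene Ccr2 was between 0 and 1.07 CPM. The astrocyte sum was 2922 CPM there and 1056 to 2315 CPM elsewhere, with Gfap, the filament protein of reactive astrocytes, at 1621 CPM against 353 to 1216 CPM. The neutrophil sum was 19.6 CPM there and 8.93 to 18.7 CPM elsewhere, and the border macrophage sum was 54.0 CPM, within the 14.7 to 59.0 CPM of the rest. Of these lists 10 border macrophage, 6 monocyte and 4 neutrophil genes were tested, and none had an unadjusted p below 0.05 in the 3 comparisons (9.64%, 3.23% and 15.4% of all genes), which with so few genes says little about these cells. The part of these cells in the levels of the phagocytic genes was not tested.

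Between CVST and CVST+Ligation, the other lists moved as follows. All 6 striatum genes were lower and 5 of 6 thalamus genes and all 6 tested midbrain and brainstem genes were higher at an unadjusted p below 0.05, as were all 4 tested cerebellum genes. Of the cortex list 3 of 7 genes were lower, and of the hypothalamus list 2 of 6 were higher and 1 was lower. Of the lists of other cell types, read against 9.64% of all genes at that threshold, 2 of 6 neuron genes were lower, 2 of 6 astrocyte genes, 1 of 6 oligodendrocyte genes and 2 of 5 red cell genes were higher, 1 of 3 tested dendritic cell and lymphocyte genes lay each way, and no gene of the endothelium list (5) or the meningeal fibroblast list (8) did. All 6 hypothalamus genes were higher in 4-PBA than in either other group at an unadjusted p below 0.05. Of all genes, 3.23% had such a p against CVST+Ligation and 15.4% against CVST. At that threshold against CVST, 4-PBA was higher in all 6 thalamus, 5 of 6 tested midbrain and brainstem and 5 of 6 oligodendrocyte genes. Lower were 5 of 7 cortex, 2 of 6 striatum and 2 of 6 neuron genes, with 1 neuron gene higher. The cerebellum, astrocyte and fibroblast lists had 1 higher gene each, and the endothelium, red cell and lymphocyte lists had 0. The labels give the same tissue for every library, so no within-region value was computed, and the regional make-up and the group cannot be told apart.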

How the data were processed

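Total RNA from 9 mouse brains, 3 mice per group by the study's methods and grouped by the sample titles, was sequenced as paired reads. The submitters' processing notes name fastp, HISAT2, StringTie and RSEM and the builds mm10 and GRCm38, without versions. The authors deposited counts, whole numbers of reads per gene symbol without normalization. A further table of normalized values, TPM by the methods, held FPKM as deposited: each value is the count over the library total and over 1 whole-number length per gene (17446 genes), and the columns sum to 780195 to 879696. How reads shared by similar or overlapping genes were counted is not given in the sources used here.

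The tests were run with edgeR 4.0.16 (R 4.3.3): TMM scaling, filterByExpr with the groups (14746 genes kept), and 1 quasi-likelihood fit of all 3 groups without covariates. Fold changes are contrasts of that fit, p-values were adjusted by Benjamini-Hochberg over all 14746 genes, and the standard error is the log2 fold change over the root of the F statistic. A gene was called at an adjusted p below 0.05, and the number at an unadjusted p below 0.05 is given beside it. CPM values are on the TMM scale. The scripts were tested on simulated counts. Within groups, log2 CPM correlated across genes at r of 0.946 to 0.982, and no pair of libraries agreed within sampling noise (chi-square at least 24.2 times its degrees of freedom). FPKM served for levels between genes and, in limma 3.58.1 with pseudocounts of 1 and 0.1, as alternatives. Other alternatives were DESeq2 1.42.0, other scalings and filters, a fit of only the 2 groups compared, a replicate block and leaving out each library. The one without both CVST+Ligation replicate 2 and 4-PBA replicate 3 was chosen after seeing the data. Depth limits the precision for Clec7a, Itgax and Cst7.

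The 10 genes and all marker lists were chosen with earlier results of these data known. Named beside the 10 genes were any of the TREM2 signalling and partner lists, and of other lists the genes at an unadjusted p below 0.05 and the 2 with the highest mean CPM, plus the 10 genes most correlated with the mean z-score. P2ry12, P2ry13, Tmem119, Cx3cr1, Lyve1 and Ccr2 were named outside this rule, as defining markers, after their values had been seen. Some genes that the rule would name are not reported here. The promoter windows are from RefSeq (GRCm38.p6), and no protein sequence was used here.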

Additional observations from a re-analysis of the deposited data

How the results depend on the processing

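Of 27 fold changes of the 9 genes in 3 comparisons, 13 kept their direction under every alternative run. The count called after adjustment was 0 in each comparison and became 1 with DESeq2 in CVST+Ligation against CVST and in 4-PBA against CVST (Trem2), and 1 in the latter with CVST+Ligation replicate 2 and 4-PBA replicate 3 both left out (Cd68). Leaving out 1 library at a time left these counts at 0. The count at an unadjusted p below 0.05 then ranged from 1 to 4 for CVST+Ligation against CVST, 0 to 4 for 4-PBA against CVST+Ligation (4 without 4-PBA replicate 1) and 1 to 4 for 4-PBA against CVST. Over all genes the same omissions gave 1206 to 1661, 256 to 1497 and 1517 to 2861. In 4-PBA against CVST the count of the listed genes was 2 with all genes of at least 1 count, where Clec7a was tested (2411 of 17446 genes in all). It was 4 with both libraries left out (2964 of 14826 in all). Clec7a was also tested in most omissions of 1 library. There its log2 fold change in 4-PBA against CVST ranged from 2.85 to 3.88, in some at an unadjusted p below 0.05 and in none at an adjusted p below 0.05.

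Reversed directions were of estimates that passed no test. With both libraries left out, CVST+Ligation against CVST gave -0.96 for Spp1 and 0.081 for Lpl. 4-PBA against CVST+Ligation gave -0.016 for Cd68, -0.30 for Lpl, -1.41 for Cst7, -0.14 for Gpnmb and -0.26 for Lgals3, and 4-PBA against CVST gave -0.36 for Spp1, -0.79 for Gpnmb, -0.99 for Lgals3 and -0.33 for Itgax. By limma on log2(FPKM + 0.1), Cst7 gave -0.13 in 4-PBA against CVST+Ligation, and in 4-PBA against CVST Gpnmb gave -0.052 and Lgals3 -0.0020. On log2(FPKM + 1), Gpnmb gave -0.020 in the latter. Leaving out 1 library, the values in CVST+Ligation against CVST ranged from -0.96 to 1.32 for Spp1, -0.91 to 0.081 for Lpl and -0.65 to 0.051 for Gpnmb. In 4-PBA against CVST+Ligation they ranged from -0.042 to 0.72 for Cd68, -0.082 to 0.15 for Trem2, -0.93 to 2.15 for Spp1, -0.34 to 0.66 for Lpl, -1.31 to 1.28 for Cst7, -0.38 to 0.94 for Gpnmb and -0.61 to 1.59 for Lgals3. In 4-PBA against CVST they ranged from -0.36 to 1.95 for Spp1, -0.79 to 0.60 for Gpnmb, -0.996 to 1.19 for Lgals3 and -0.33 to 1.26 for Itgax. Apart from the libraries left out, the cause was not tested.

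The replicate numbers in the sample titles are not stated to pair mice. Same-numbered libraries deviated together with r of 0.04 to 0.32, 0.04 to 0.13 and -0.05 to 0.03 in the 3 comparisons. These values do not settle whether such libraries share more than a number. Over all genes, 1765, 521 and 2644 had an unadjusted p below 0.05 with a replicate block, against 1422, 476 and 2271 without it. With a replicate block, 3, 0 and 1 of the 9 genes had an unadjusted p below 0.05 in CVST+Ligation against CVST, 4-PBA against CVST+Ligation and 4-PBA against CVST, as without it, and Gpnmb gave -0.057 in 4-PBA against CVST.

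Over all genes, leaving out 1 library gave 1206 to 1661, 256 to 1497 and 1517 to 2861 genes at an unadjusted p below 0.05 in the 3 comparisons. DESeq2 called 264, 22 and 855 genes after adjustment in the 3 comparisons, against 3, 0 and 18. Scaling by total counts moved the split at an unadjusted p below 0.05 in 4-PBA against CVST from 1190 of 2271 higher to 1482 of 2276 higher. With 18100739 to 25091498 reads a library, Clec7a and Itgax rest on few reads, and their differences are limited by depth as well as by the spread between mice.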
